A study of Rattus norvegicus with 30 samples.

Results

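The p21, cyclin D1 and p53 response genes examined here are 8 rat genes: *Cdkn1a* (which encodes p21), *Ccnd1* (cyclin D1), *Ccng1* (cyclin G1), *Mdm2*, *Gadd45a*, *Btg2*, *Bax* and *Xpc*. They were chosen by name, with earlier results of these data known. Besides *Ccnd1*, they were chosen as growth-arrest genes and known p53 targets. Their levels were followed in liver across 6 diets. A probe set of their own was named for 6 of the 8 genes, which gave 11 probe sets of the 31042 on the array that are not controls, and 6 genes of the 14218 named there. No probe set carried the symbol *Btg2* alone, and the 1 probe set of *Bax* also carried a second gene's symbol, so these 2 genes were not analysed here. All 11 probe sets passed the filter on dim probe sets, which kept 18625 probe sets of 10699 genes.

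The study asked how tofu in the diet changes gene expression in rat liver. Male Sprague-Dawley rats arrived at 4 weeks of age, ate a commercial diet for 5 days and then 1 of 6 diets for 14 days, with 5 rats per diet and 1 Affymetrix array per liver, 30 arrays in all. Each diet held 200 g of protein per kg. In T20 all of this protein came from freeze-dried tofu. In T10 100 g per kg came from tofu and the other 100 g from casein. SI held soy protein with added isoflavones, and S soy protein alone. CI held casein with added isoflavones, and C, the reference for T20, T10 and S, held casein alone. The isoflavone mixture in SI and CI was matched to the isoflavone content of T20. Protein and isoflavones were thus the 2 matched quantities stated in the labels used here, and other components of tofu cannot be told apart from its protein in T20 and T10. Isoflavones were not matched in T20 or T10 against C, which held none added. In these comparisons they cannot be told apart from the tofu protein either.

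p53 is a transcription factor that is stabilised after DNA damage and other stress, and that raises the expression of genes that stop the cell cycle, repair DNA or start cell death. p21 binds and inhibits cyclin-dependent kinases, and cyclin D1 is the activating subunit of the kinases that carry a cell through G1. In liver, p21 and cyclin D1 are also known to respond to feeding, growth factors and nuclear receptors, and cyclin D1 is known for its rise when hepatocytes re-enter the cell cycle after loss of liver tissue. Mdm2 is the ubiquitin ligase that leads p53 to degradation and is itself a p53 target.

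Sequence upstream of 3 of the genes is shown because *Ccng1* and *Xpc* are the genes that were lower than in casein-fed livers, and *Cdkn1a* is the best known target of p53. Each is the 250 bases before the start of the gene in RefSeq, build GRCr8, on the gene's strand, read 5′ to 3′. The positions are chr20:7150682-7150931 (+ strand) for *Cdkn1a*, chr10:25684877-25685126 (- strand) for *Ccng1* and chr4:125578085-125578334 (- strand) for *Xpc*. Capitals mark a match to the p53 half-site, the 10-base element of which p53 binds a pair.
Cdkn1a: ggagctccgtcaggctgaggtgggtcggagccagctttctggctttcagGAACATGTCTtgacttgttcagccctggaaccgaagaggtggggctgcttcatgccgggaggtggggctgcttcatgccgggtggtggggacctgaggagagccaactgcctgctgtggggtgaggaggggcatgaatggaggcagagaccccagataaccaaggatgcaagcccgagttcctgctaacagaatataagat
Ccng1: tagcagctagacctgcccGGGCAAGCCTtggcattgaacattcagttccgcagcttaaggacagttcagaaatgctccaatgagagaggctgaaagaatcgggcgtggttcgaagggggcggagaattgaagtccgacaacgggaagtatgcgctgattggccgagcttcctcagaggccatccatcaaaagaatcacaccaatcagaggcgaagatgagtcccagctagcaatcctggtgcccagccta
Xpc: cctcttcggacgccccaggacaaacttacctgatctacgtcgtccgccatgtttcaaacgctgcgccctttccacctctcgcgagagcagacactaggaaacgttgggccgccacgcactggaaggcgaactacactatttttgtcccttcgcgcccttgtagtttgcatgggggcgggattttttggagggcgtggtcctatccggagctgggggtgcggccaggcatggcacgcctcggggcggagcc

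Of the 6 genes with an entry in the RefSeq promoter table (*Cdkn1a*, *Ccng1*, *Mdm2*, *Gadd45a*, *Btg2* and *Xpc*), 3 held a p53 half-site within these 250 bases. It lay 192 to 201 bases before the start in *Cdkn1a*, 223 to 232 in *Ccng1* and 39 to 48 in *Gadd45a*. On both strands, 6.56% of all 27457 promoters of the same length held a match. A GC box (GGGCGG, either strand) was found in 5 of the 6 genes and in 32.4% of all promoters. A TATA box (TATAAA) and an E-box (CACGTG) were found in 0 of the 6 genes, and in 13.1% and 5.79% of all promoters. These are matches of letters in a window before the RefSeq gene start and do not mark bound sites. Starts of other transcripts were not examined.

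The arrays of a diet were labelled biological replicates, and their median intensities ran from 217.4 to 255.5. A limma model was fitted to the log2 intensities of all 30 arrays, with two-sided tests and Benjamini-Hochberg adjustment over all 18625 tested probe sets, and an adjusted p under 0.05 was taken as passing. All values below are log2 intensities or differences of them, so that a difference of 1 is a 2-fold difference on the deposited scale, and the comparisons against C share the same 5 C arrays. Several arrays stood apart. C replicate 3 and CI replicate 3 carried the same normalization parameters in the labels, although their values correlated no more (r = 0.9663) than arrays of different diets could (0.943 to 0.9775). T10 replicates 3, 4 and 5 had a GAPDH 3′ to 5′ ratio, a measure of RNA integrity, of 1.32 to 1.58, against 0.97 to 1.25 on the other 27 arrays. Replicates 4 and 5 of T20 and T10 had *Dbp* levels of 9.15 to 12.06, against 6.53 to 8.98 on the other 26 arrays; *Dbp* is an output gene of the circadian clock.

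Over all 6 diets, 3 of the 6 measured genes passed the moderated F test, against 12.9% of all probe sets. These were *Ccnd1* (adjusted p = 0.00013, limma), *Xpc* (0.00125) and *Ccng1* (0.0216; 0.0556 after centring each array on its median). *Cdkn1a* (0.113), *Gadd45a* (0.359) and *Mdm2* (0.649) did not pass. *Ccnd1* had its highest means on the soy protein diets and its lowest on the tofu diets, whereas *Xpc* and *Ccng1* had their highest means on the casein diets. The *Cdkn1a* test depended on 1 array: without C replicate 3 its adjusted p was 0.0375, and without C replicate 3 and CI replicate 3 together it was 0.0145.

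**Figure D1:**
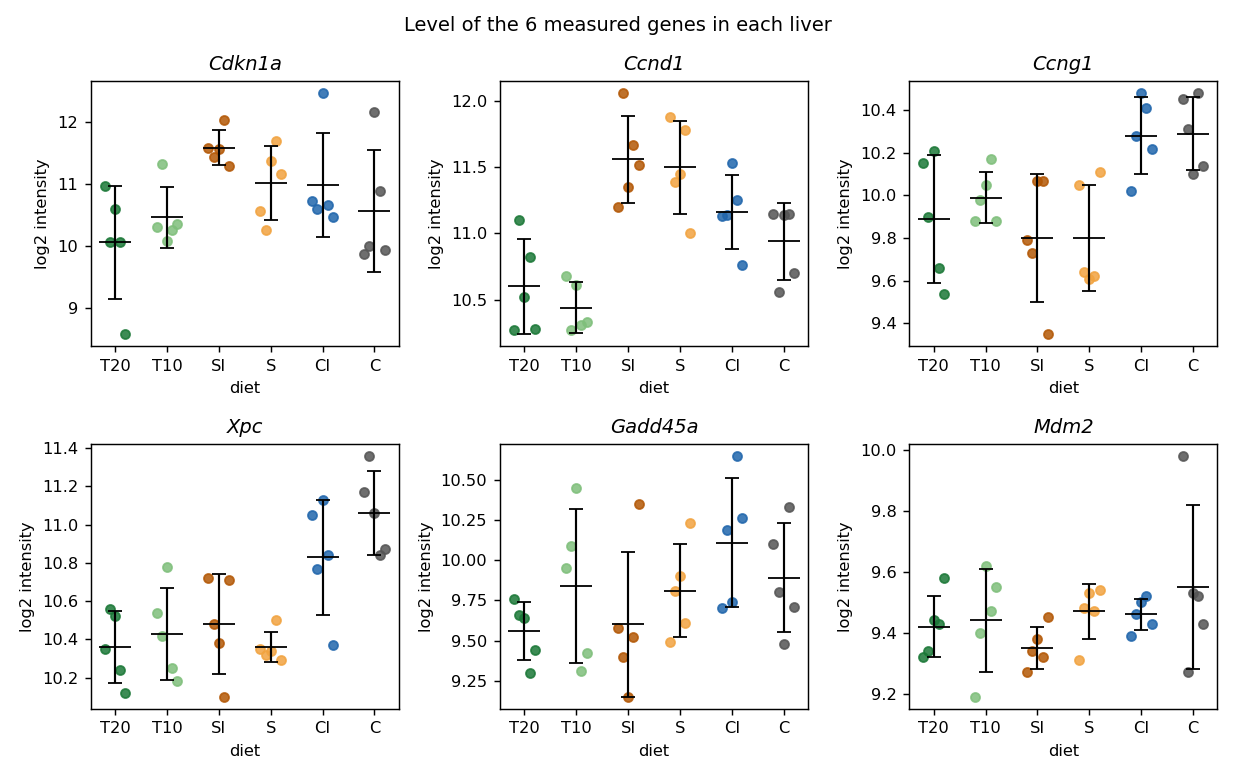
Log2 intensity of the 6 measured genes (vertical axes) in each liver on the 6 diets (horizontal axes); each point is 1 rat, the long bar is the mean and the short bars the SD (n = 5 per diet). *Xpc* in T20, T10 and S livers lies below 10.84, the lowest C liver, and *Cdkn1a* shows 1 high liver in CI (12.46) and 1 in C (12.15).

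Cdkn1a, the p21 gene, had its highest mean on soy protein with isoflavones and its lowest on the full tofu diet. The 5 T20 livers had log2 intensities of 10.96, 10.07, 10.60, 10.07 and 8.58 (mean 10.06 ± 0.91, SD), and the 5 T10 livers had 10.30, 11.31, 10.08, 10.25 and 10.35 (mean 10.46 ± 0.49). The SI livers had 11.58, 11.43, 11.56, 12.03 and 11.29 (mean 11.58 ± 0.28), and the S livers 10.56, 10.26, 11.36, 11.69 and 11.15 (mean 11.01 ± 0.59). The CI livers had 10.73, 10.59, 12.46, 10.65 and 10.46 (mean 10.98 ± 0.84), and the C livers 9.87, 9.99, 12.15, 10.89 and 9.93 (mean 10.56 ± 0.98). The SI livers were close together, and the spread was wide in T20, CI and C, where T20 replicate 5 was low and CI replicate 3 and C replicate 3 were high. In the order SI, S, CI, C, T10, T20, no difference between neighbouring means exceeded the larger of their SDs.

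The 1 comparison in which *Cdkn1a* passed was T20 against SI. These diets hold tofu or soy protein, and the isoflavones added to SI were matched to the content of T20. *Cdkn1a* was lower in T20 by 1.52 ± 0.43 on the log2 scale (2.87-fold lower, mean ± SE; 95% interval of the difference -2.40 to -0.64; adjusted p = 0.0433, limma), and all 5 T20 livers lay below all 5 SI livers. The gene's second probe set, which followed the first over the arrays (r = 0.92), had a difference of -1.35 ± 0.43 with an adjusted p of 0.0758. The T20 liver with the lowest level, replicate 5, also had the highest *Dbp* level of all arrays, 12.06; the part of the clock genes in the *Cdkn1a* values was not tested. Without T20 replicate 5 the difference was -1.15 with an adjusted p of 0.113, and without replicates 4 and 5 of both tofu diets it was -1.04 with an adjusted p of 0.172. The call was also lost when SI replicate 1, 2, 4 or 5 or T20 replicate 2 or 4 was omitted (omitting single arrays gave adjusted p of 0.0442 to 0.113).

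Against casein, *Cdkn1a* passed in 0 comparisons, and its intervals were wide. The difference was -0.51 ± 0.43 for T20 against C (95% interval -1.39 to 0.37; adjusted p = 0.538, limma) and -0.11 ± 0.43 for T10 against C (adjusted p = 0.955). It was 0.44 ± 0.43 for S against C (95% interval -0.44 to 1.32; adjusted p = 0.612) and 0.60 ± 0.43 for SI against CI (95% interval -0.28 to 1.48; adjusted p = 0.376). These intervals hold both no change and a change of more than 1 log2 unit in all but the T10 comparison, whose interval ran from -0.99 to 0.77. Leaving out C replicate 3, the highest C liver, moved the T20 difference to -0.11 and turned the T10 difference to 0.29. Without replicates 4 and 5 of both tofu diets the T20 difference was -0.02. Without C replicate 3 and CI replicate 3 together, the differences were 0.84 for S against C and 0.97 for SI against CI, with adjusted p of 0.173 and 0.0719.

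Ccnd1, the cyclin D1 gene, was the member with the most distinct levels between diets. In T20 livers it had log2 intensities of 10.27, 11.10, 10.52, 10.82 and 10.28 (mean 10.60 ± 0.36), and in T10 livers 10.68, 10.27, 10.61, 10.31 and 10.33 (mean 10.44 ± 0.19). In SI livers it had 11.20, 12.06, 11.35, 11.67 and 11.52 (mean 11.56 ± 0.33), and in S livers 11.88, 11.39, 11.45, 11.78 and 11.0 (mean 11.50 ± 0.35). In CI livers it had 11.13, 11.14, 11.53, 11.25 and 10.76 (mean 11.16 ± 0.28), and in C livers 11.15, 10.56, 11.14, 11.15 and 10.70 (mean 10.94 ± 0.29). The casein livers thus lay between the tofu and the soy protein livers and overlapped with both. In the order SI, S, CI, C, T20, T10, no difference between neighbouring means exceeded the larger of their SDs.

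In T20 livers *Ccnd1* was lower than in SI livers by 0.96 ± 0.18 (1.95-fold lower; 95% interval of the difference -1.34 to -0.59; adjusted p = 0.00411, limma), with no overlap between the groups. With *Cdkn1a*, 2 of the 6 measured genes passed in this comparison and both fell, against 3.51% of all probe sets that passed; the groups did not overlap for these 2 genes, as for 4.05% of all probe sets. The 3 probe sets of *Ccnd1* followed each other over the arrays (r from 0.83 to 0.96). The second had a difference of -1.0 ± 0.19 (adjusted p = 0.00462) and the third of -0.72 ± 0.21 (adjusted p = 0.0581). The call held without any 1 array (adjusted p 0.0017 to 0.022) and was lost when only the T20 and SI arrays were fitted (0.0621).

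Both tofu diets had lower *Ccnd1* means than C, and S a higher one, but the representative probe set did not pass in these comparisons. The difference was -0.34 ± 0.18 for T20 against C (adjusted p = 0.296, limma), -0.50 ± 0.18 for T10 against C (adjusted p = 0.332) and 0.56 ± 0.18 for S against C (95% interval 0.18 to 0.94; adjusted p = 0.0586). In the last comparison 4 of 5 S livers lay above every C liver. The second probe set passed there (0.64 ± 0.19, adjusted p = 0.0412), and the representative one did so without S replicate 5, the lowest S liver (adjusted p = 0.0213). It also passed after quantile normalization (0.0305), with equal median and spread (0.0442) and with the filter at the 60th percentile (0.0467). For SI against CI the difference was 0.40 ± 0.18 (95% interval 0.02 to 0.78; adjusted p = 0.151).

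**Figure D2:**
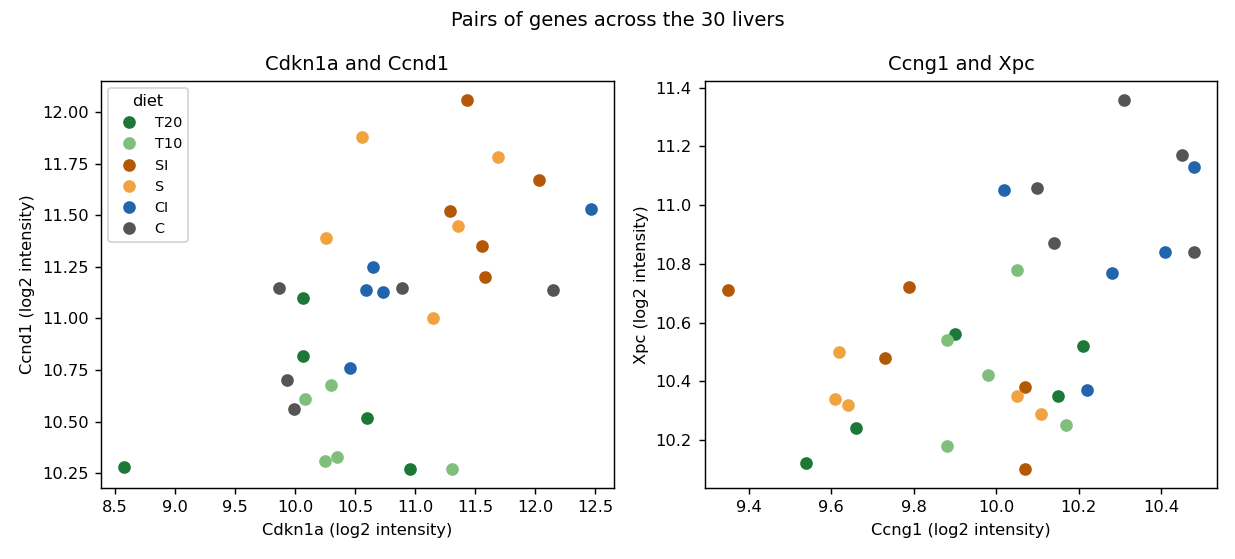
Log2 intensity of *Ccnd1* against *Cdkn1a* (left) and of *Xpc* against *Ccng1* (right) in the 30 livers, coloured by diet; each point is 1 rat. In the left panel SI livers sit toward the upper right, with *Cdkn1a* at 11.29 or more. CI replicate 3 (12.46) and C replicate 3 (12.15) lie further right. In the right panel most casein livers sit toward the upper right. CI replicate 5 (*Xpc* 10.37) lies lower and CI replicate 1 (*Ccng1* 10.02) further left.

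Within diets, no correlation between *Cdkn1a* and *Ccnd1* passed the test. After each diet's mean was subtracted, they had a Pearson r of 0.24 over the 30 arrays (permutation p = 0.246) and a Spearman rho of 0.20 (permutation p = 0.343), and r was 0.09 without C replicate 3 and CI replicate 3. Over all 15 pairs of the 6 genes, Pearson r ran from -0.15 to 0.28, and every pair had an adjusted permutation p of 0.989.

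Xpc, which encodes the protein that recognises damaged sites in global genome nucleotide excision repair and is a p53 target in human cells, was lower in T20, T10 and S livers than in C livers. The T20 livers had log2 intensities of 10.35, 10.56, 10.52, 10.24 and 10.12 (mean 10.36 ± 0.19), and the T10 livers 10.54, 10.42, 10.78, 10.25 and 10.18 (mean 10.43 ± 0.24). The SI livers had 10.72, 10.48, 10.38, 10.10 and 10.71 (mean 10.48 ± 0.26), and the S livers 10.35, 10.32, 10.34, 10.5 and 10.29 (mean 10.36 ± 0.08). The CI livers had 11.05, 10.77, 11.13, 10.84 and 10.37 (mean 10.83 ± 0.30), and the C livers 11.17, 11.36, 11.06, 10.84 and 10.87 (mean 11.06 ± 0.22). Every T20, T10 and S liver lay below every C liver, whereas SI and CI overlapped. In the order C, CI, SI, T10, T20, S, the step between CI and SI was the only one to exceed the larger SD of the 2 neighbours.

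In T20 against C, *Xpc* fell by 0.70 ± 0.14 on the log2 scale (1.63-fold lower; adjusted p = 0.00378, limma) and was the 1 of 6 measured genes that passed, against 4.5% of all probe sets. No overlap between the groups was seen for 4.99% of all probe sets. In S against C it fell by 0.70 ± 0.14 (1.62-fold lower; adjusted p = 0.00161), 1 of 2 measured genes that passed against 7.25% of all probe sets, with no overlap for 7.5% of all. These 2 calls held without any 1 array, with adjusted p up to 0.0125 and 0.00703. In T10 against C, where 0.322% of all probe sets passed and 1.94% did not overlap, *Xpc* was again the 1 gene to pass. It fell by 0.63 ± 0.14 (1.54-fold lower; adjusted p = 0.0337), and this call was lost when C replicate 1, 2 or 3 or T10 replicate 2, 4 or 5 was omitted (omitting single arrays gave adjusted p of 0.0171 to 0.128). Without T10 replicates 3, 4 and 5, the arrays of high 3′ to 5′ ratio, its adjusted p was 0.396. Without replicates 4 and 5 of T20 and T10, the arrays of high *Dbp*, it was 0.338. The call was also lost after median centring (0.0576), with equal median and spread (0.126) and when only the groups compared were fitted (0.133). Without C replicate 3 and CI replicate 3 it was lost too (0.0873). The part of the ratio and of the clock genes in the T10 values was not otherwise tested.

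With isoflavones in both diets, *Xpc* did not pass. The difference for SI against CI was -0.35 ± 0.14 (95% interval -0.64 to -0.07; adjusted p = 0.0878, limma), and without CI replicate 5, the lowest CI liver, the adjusted p was 0.0289. The interaction of soy protein with isoflavones for *Xpc* was 0.35 ± 0.19 with an adjusted p of 0.578, so a difference between the 2 soy protein effects was not shown.

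Ccng1, the cyclin G1 gene, is a p53 target whose product recruits a phosphatase to Mdm2. The gene was lower on both soy protein diets than on the casein diet with the same isoflavone addition, none in S and C. The T20 livers had log2 intensities of 10.15, 9.90, 10.21, 9.66 and 9.54 (mean 9.89 ± 0.30), and the T10 livers 9.88, 9.98, 10.05, 10.17 and 9.88 (mean 9.99 ± 0.12). The SI livers had 9.79, 9.73, 10.07, 10.07 and 9.35 (mean 9.80 ± 0.30), and the S livers 10.05, 9.64, 9.61, 9.62 and 10.11 (mean 9.80 ± 0.25). The CI livers had 10.02, 10.28, 10.48, 10.41 and 10.22 (mean 10.28 ± 0.18), and the C livers 10.45, 10.31, 10.10, 10.48 and 10.14 (mean 10.29 ± 0.17). The ranges touched in each comparison: 4 of 5 S livers lay below every C liver, and 3 of 5 SI livers below every CI liver. In the order C, CI, T10, T20, SI, S, the step between CI and T10 was the only one to exceed the larger SD of the 2 neighbours.

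In S against C, *Ccng1* fell by 0.49 ± 0.14 (1.40-fold lower; adjusted p = 0.0292, limma). In SI against CI it fell by 0.48 ± 0.14 (1.39-fold lower; adjusted p = 0.0266) and was the 1 of 6 measured genes to pass, against 11.6% of all probe sets, so the share of members was close to the background. The S call was lost when C replicate 1, 2 or 4 or S replicate 2, 3 or 4 was omitted (adjusted p of 0.0165 to 0.0883), and after quantile normalization (0.0548) or centring each array on its median (0.0522). The SI call was lost when CI replicate 3 or 4 or SI replicate 2 or 5 was omitted (adjusted p of 0.017 to 0.101) and after median centring (0.0851). For T20 against C the difference was -0.40 ± 0.14 (adjusted p = 0.0943), and for T10 against C it was -0.30 ± 0.14 (adjusted p = 0.481).

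Mdm2 and Gadd45a, the other 2 measured members, passed in 0 of the comparisons. At its representative probe set *Mdm2* was nearly level. Its means there were 9.42 in T20, 9.44 in T10, 9.35 in SI, 9.47 in S, 9.46 in CI and 9.55 in C livers. The differences of this probe set ran from -0.12 ± 0.09 for T20 against C to 0.07 ± 0.09 for T20 against SI. The 95% interval for T20 against C was -0.32 to 0.07. The 3 probe sets of *Mdm2* followed each other less closely than those of *Ccnd1* (r from 0.44 to 0.67). All 3 were lower in T20, T10 and S against C and in SI against CI, without passing. The third differed most, by -0.25 ± 0.12 in T20 against C (95% interval -0.49 to -0.01, adjusted p = 0.216, limma). In S against C it differed by -0.24 ± 0.12 (adjusted p = 0.237). *Gadd45a*, whose product binds stress kinases and repair proteins, had a wide spread within diets, with means of 9.56 ± 0.18 in T20, 9.84 ± 0.48 in T10, 9.60 ± 0.45 in SI, 9.81 ± 0.29 in S, 10.11 ± 0.40 in CI and 9.89 ± 0.34 in C livers. For SI against CI, 4 of 5 SI livers lay below every CI liver, with a difference of -0.51 ± 0.22 (95% interval -0.96 to -0.05; adjusted p = 0.128, limma). SI replicate 5, at 10.35, was the exception, and without it the adjusted p was 0.0429.

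**Figure D3:**
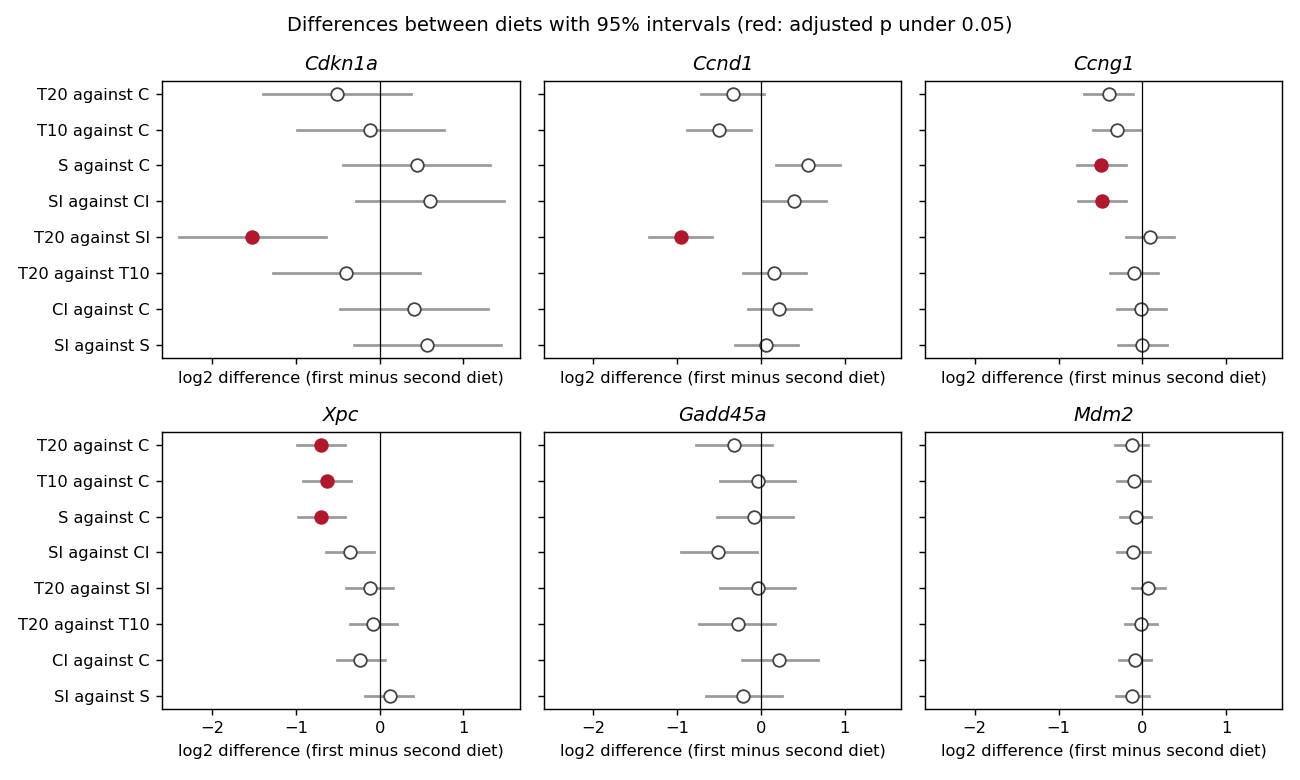
Log2 difference between diets for the 6 measured genes (first diet minus second, horizontal axes) for 8 comparisons (vertical axis). Lines are 95% intervals from the limma difference and SE with 24 degrees of freedom. Filled red points have an adjusted p under 0.05 (limma). *Xpc* is lower in T20, T10 and S against C, *Ccng1* in S against C and SI against CI, and *Cdkn1a* and *Ccnd1* in T20 against SI.

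Adding isoflavones left no measured member past the threshold, and neither did raising the tofu share. In CI against C, SI against S and T20 against T10, 0 of the 6 genes passed in limma, and 0.0% of all probe sets did so in each. At an unadjusted p under 0.05 the counts over all probe sets were 1605, 664 and 1318, and 0 of the 6 members were among them in each comparison. The intervals bound the members unevenly. For CI against C the 95% interval was -0.30 to 0.28 for *Ccng1* and -0.47 to 1.29 for *Cdkn1a*. For SI against S it was -0.17 to 0.40 for *Xpc* and -0.31 to 0.44 for *Ccnd1*. For T20 against T10 it was -0.22 to 0.54 for *Ccnd1* and -1.28 to 0.48 for *Cdkn1a*. The interaction of soy protein with isoflavones passed for 0 of the 6 members (adjusted p 0.578 to 0.988) and for 0.0161% of all probe sets.

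A few other p53 targets rose in SI against CI, where *Ccng1* fell. There 5 of 22 other known p53 target genes rose and 0 fell, with a median difference of -0.01, against 12.5% of all genes called and a median of 0.003. *Cyfip2*, a regulator of actin that is p53-inducible in human cells, rose by 1.81 ± 0.26 (adjusted p = 4.38e-05, limma), with means of 9.96 in SI and 8.15 in CI livers. *Tp53i11* rose by 0.38 ± 0.08 (adjusted p = 0.00289), *Sesn2*, a sestrin that restrains TORC1, by 0.65 ± 0.19 (0.023) and *Tp53inp1*, a p53-induced stress protein, by 0.68 ± 0.21 (0.0349). The fifth, *Ephx1* (0.37 ± 0.12, adjusted p = 0.0454), an epoxide hydrolase, was named after its values were seen. The *Cyfip2* and *Tp53i11* calls held without any 1 array. Those of *Sesn2*, *Tp53inp1* and *Ephx1* were lost without CI replicate 4, CI replicate 5 or SI replicate 2, among others, with adjusted p up to 0.0892, 0.112 and 0.138.

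In S against C only *Cyfip2* of the 22 rose (1.45 ± 0.26; adjusted p = 0.000597, limma) and 0 fell, with a median of -0.09, against 7.99% of all genes called. *Tp53i11* and *Sesn2* had lower means there without passing, 8.73 in S and 8.86 in C livers and 10.64 in S and 10.75 in C livers. In CI, the group set against SI, their means were 8.47 and 10.43. In T20 against SI, 2 of the 22 fell, *Cyfip2* by 1.03 ± 0.26 (adjusted p = 0.0227) and *Sesn2* by 0.66 ± 0.19 (0.0445), against 4.03% of all genes. Both calls were lost without T20 replicate 1 or any one of several others, with adjusted p up to 0.0834 and 0.121. In T20 and in T10 against C, 0 of the 22 passed, with medians of -0.10 and -0.08, against 4.86% and 0.402% of all genes called. Among 13 genes of p53 and its regulators, 2 fell in T20 against C, the deubiquitinase gene *Usp7* (-0.43 ± 0.10, adjusted p = 0.0116) and the ubiquitin ligase gene *Cop1* (-0.29 ± 0.07, 0.0227). The *Cop1* call was lost when C replicate 3, 4 or 5 or T20 replicate 1 or 2 was omitted (adjusted p up to 0.0714), and both were lost without C replicate 3 and CI replicate 3 together.

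The families of the members held calls in single comparisons. In T20 against C, where 4.86% of all genes were called, *Cdkn3*, a phosphatase of cyclin-dependent kinases, was the 1 of 6 other genes for inhibitors of these kinases to pass and fell by 1.00 ± 0.23 (adjusted p = 0.0130, limma). Its means were 9.18 in T20 and 10.18 in C livers, and its call was lost without replicates 4 and 5 of both tofu diets. *Cdkn2c*, an inhibitor of the kinases that cyclin D1 activates, was the 1 of the 6 to pass in SI against CI, where it rose by 0.37 ± 0.11 (adjusted p = 0.0259; 12.5% of all genes called), and in T20 against SI, where it fell by 0.38 ± 0.11 (0.0467; 4.03% of all genes called). Both *Cdkn2c* calls were lost without SI replicate 2 or 3, among others (adjusted p up to 0.0855 and 0.116). Of 17 other genes for G1 cyclins, their kinases, pocket proteins and E2F factors, 0 passed in T20 against C, 2 (*Rbl2* and *E2f5*) fell in S against C, against 7.99% of all genes called, and 3 fell in SI against CI: *Rbl2*, *E2f5* and *Tfdp2*, by 0.32 ± 0.10, 0.38 ± 0.12 and 0.44 ± 0.14 (adjusted p = 0.0383, 0.0392 and 0.0437), against 12.5% of all genes called. Each of these 3 calls was lost without SI replicate 4 or SI replicate 5, among others (adjusted p up to 0.135, 0.123 and 0.140). *Btg3*, a relative of *Btg2* with a growth-restraining product, fell by 1.01 ± 0.18 in SI against CI (adjusted p = 0.000454), with means of 7.72 in SI and 8.73 in CI livers. It was the 1 of 11 listed relatives and binding partners of *Gadd45a*, *Btg2* and *Ccng1* that passed there, against 12.5% of all genes called. The call held without any 1 array.

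Calls among cell death and repair genes differed between comparisons. *Bcl2l11*, which encodes the pro-apoptotic protein Bim, was the 1 of 13 genes of the BCL2 family to pass in S against C and rose by 1.17 ± 0.25 (adjusted p = 0.00394, limma), with means of 9.53 in S and 8.36 in C livers; 7.99% of all genes were called there. In T20 against C, where 4.86% of all genes were called, it was again the 1 of the 13 to pass and rose by 0.94 ± 0.25 (adjusted p = 0.0326), a call lost when C replicate 1 or 5 or T20 replicate 1, 2 or 5 was omitted (adjusted p up to 0.107). It rose in SI against CI by 0.94 ± 0.25 (adjusted p = 0.0161; 0.0514 without SI replicate 4), while *Bnip3l* and *Bnip3* fell by 0.48 ± 0.11 and 0.49 ± 0.12 (0.00605 and 0.00994), so that 3 of 13 passed against 12.5% of all genes. Of 17 nucleotide excision repair genes other than *Xpc*, 0 passed in T20 or T10 against C, where 4.86% and 0.402% of all genes were called. *Rpa3*, a subunit of the single-strand binding protein RPA, was the 1 of 17 that fell in S against C, against 7.99% of all genes called. It was 0.48 ± 0.14 lower there (adjusted p = 0.0277, limma). *Rpa3* also fell in SI against CI together with *Cetn2*, whose product is a partner of the Xpc protein. They were 0.51 ± 0.14 and 0.60 ± 0.18 lower (adjusted p = 0.0157 and 0.0280, limma), 2 of 17 against 12.5% of all genes. The *Rpa3* calls were lost without S replicate 2 (S against C, adjusted p up to 0.0784) and without SI replicate 5 (SI against CI, 0.0522), and the *Cetn2* call without SI replicate 2 (up to 0.0779), among others.

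**Figure D4:**
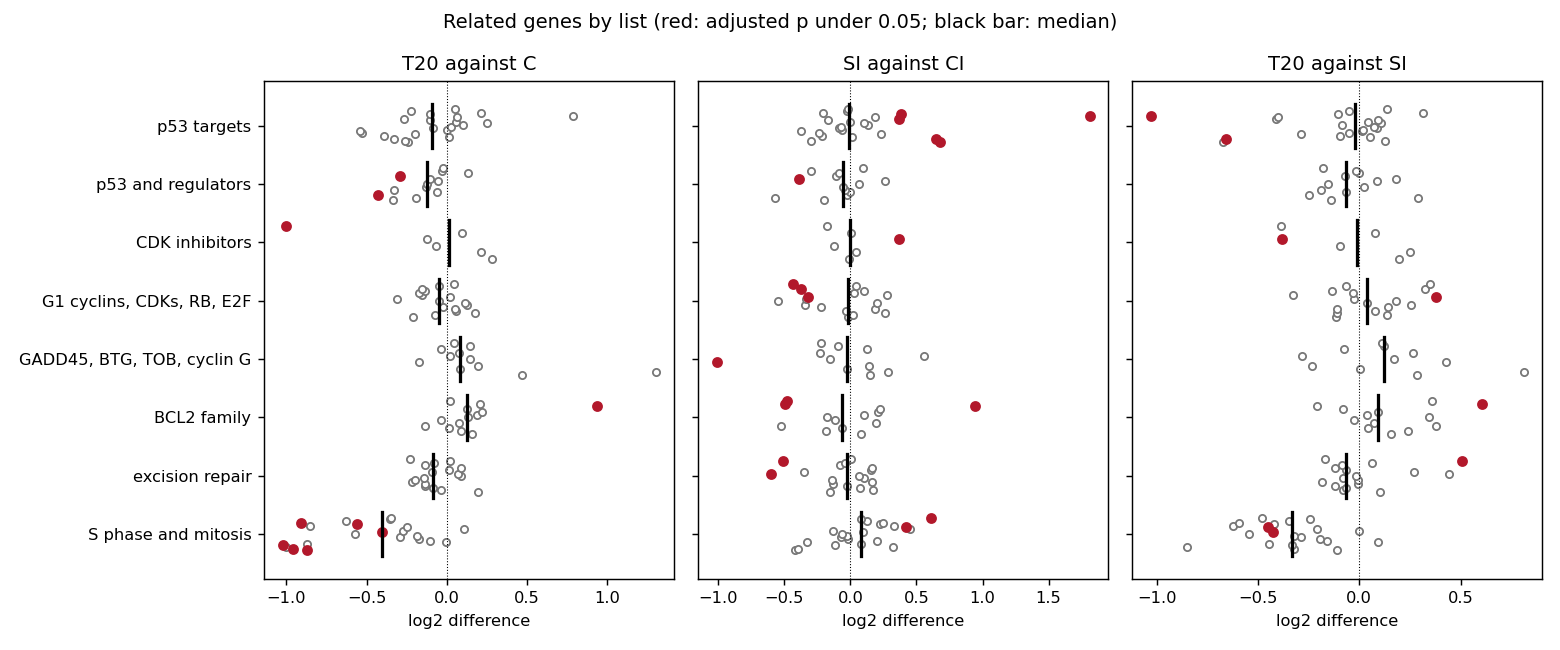
Log2 difference of each tested gene of 8 lists (points, by list on the vertical axis) in T20 against C, SI against CI and T20 against SI (horizontal axes); red points have an adjusted p under 0.05 and black bars are list medians. *Cyfip2* stands far to the right in SI against CI (1.81), and the S phase and mitosis list has a median of -0.41 in T20 against C.

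Some genes of S phase and mitosis fell in T20 against C, a comparison in which *Ccnd1* did not pass. In T20 against C, 6 of 21 fell and 0 rose, with a median difference of -0.41, against 4.86% of all genes called and a median of 0.001. The mitotic cyclin gene *Ccnb2* fell by 1.02 ± 0.18 (adjusted p = 0.00139, limma), a call that held without any 1 array. Those of *Plk1*, *Top2a* and *Aurka* (-0.56 ± 0.15, -0.87 ± 0.23 and -0.91 ± 0.25) were lost without C replicate 2, T20 replicate 2 or T20 replicate 4, among others, with adjusted p up to 0.0904. All of the 6 calls except that of *Ccnb2* were lost without replicates 4 and 5 of T20 and T10, the arrays of high *Dbp*, and when only the groups compared were fitted. In T10 against C, *Ccnb2* alone of the 21 fell (-0.91 ± 0.18, adjusted p = 0.0136; 0.0708 without T10 replicate 4), with a list median of -0.36, against 0.402% of all genes called. Without T10 replicates 3, 4 and 5, the arrays of high 3′ to 5′ ratio, its adjusted p was 0.417, and without replicates 4 and 5 of T20 and T10 it was 0.0606. The genes that rose in SI against CI were 2 of the 21, *Stmn1* and *Tk1* (0.61 ± 0.16 and 0.42 ± 0.12), against 12.5% of all genes called. Both lost their calls without CI replicate 5, among others (adjusted p up to 0.0625 and 0.0761). In T20 against SI, where *Ccnd1* passed, 2 of the 21 fell and 0 rose (median -0.33), against 4.03% of all genes called. These were *Tk1* and *Mcm7* (-0.45 ± 0.12 and -0.42 ± 0.12, adjusted p = 0.0293 and 0.0399, limma). Both calls were lost without T20 replicate 1 or 2, among others (adjusted p up to 0.103 and 0.119). In S against C, *Ccnb2* alone fell (-0.61 ± 0.18, adjusted p = 0.0328, up to 0.0959 without 1 array), against 7.99% of all genes called. *Ccnb2*, *Plk1*, *Top2a* and *Aurka* had their highest means of the 6 diets in C livers. For *Ccnb2* the mean was 10.13 in C and 9.56 in CI livers. In CI against C, 0 of the 21 passed and the list median was -0.22, with 0.0% of all genes called.

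Over all 30 arrays, the genes with the most similar profiles were found by Pearson r on log2 intensity among 10699 genes; the points share diets and arrays, so r describes them and was not tested. For *Ccnd1* the highest r were those of *Hamp* (0.88), which encodes the iron hormone hepcidin, *Eif4a1* (0.85), a translation initiation factor, *Ppp1r14b* (0.82), *Odc1* (0.81), the ornithine decarboxylase of polyamine synthesis, and *Nsun2* (0.81), an RNA methyltransferase. The lowest were those of *Mettl7a* (-0.83), *Oat* (-0.82), ornithine aminotransferase, and *Cyp4f4* (-0.80), a cytochrome P450. For *Cdkn1a* they were *Slc45a3* (0.76), *Fam220a* (0.73), *Lsm11* (0.71), *Lpin1* (0.70), a phosphatidate phosphatase, and *Afg1l* (0.65), and at the low end *Nfx1* (-0.68), *Rilpl2* (-0.66) and *Tom1l1* (-0.65).

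The livers carried the markers of hepatocytes on all arrays: the summed intensity of 8 markers was 347009 to 419662 in T20, 376367 to 461434 in T10, 368709 to 469543 in SI, 359686 to 402772 in S, 336752 to 406306 in CI and 330045 to 416882 in C livers. Of the other cell types' markers, 0 of 10 for macrophages, 0 of 3 for bile duct, 0 of 3 for lymphocytes and 0 of 4 for blood passed in the 8 comparisons between diets. Of all genes, 4.86% were called in T20 against C and 4.03% in T20 against SI. The shares were 7.99% in S against C and 12.5% in SI against CI. Of 7 endothelial markers *Lyve1* rose in T20 against C (0.36 ± 0.10, adjusted p = 0.0404, limma), a call lost without any 1 of the C replicates (up to 0.143). Of the 8 hepatocyte markers *Hnf4a* fell in S against C (-0.53 ± 0.14, 0.0203; up to 0.0792 without C replicate 1 or 3), and *Serpina1* and *Cyp2e1* rose in SI against CI (0.24 ± 0.06 and 0.43 ± 0.13, 0.0157 and 0.0336; up to 0.0546 and 0.103 without 1 array, such as CI replicate 4 or SI replicate 2), as did *Acta2* of 10 stellate markers (0.32 ± 0.11, 0.0442; up to 0.146 without 1 array, such as any SI replicate). Summed macrophage markers were 28801 to 39766 in T20, 23209 to 35612 in SI and 28978 to 31833 in C livers. The pericyte gene *Rgs5* rose in T20, by 0.76 ± 0.13 against C and by 0.91 ± 0.13 against SI (adjusted p = 0.00103 and 0.00024, limma), as the 1 stellate cell marker of 10 to do so in T20, with summed stellate markers of 18960 to 21313 in T20, 17297 to 23891 in SI and 18931 to 21543 in C livers. The part of these markers in the results was not tested. In whole liver, fewer cells of a type and less RNA per cell cannot be told apart.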

How the data were processed

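Liver RNA of 30 rats was measured with 1 Affymetrix array each, and rats were grouped by the diet in the labels, 5 per diet. The deposited intensity of each probe set came from the authors' normalization with SuperNORM, per the labels. The step back to a linear scale is not given in the sources used, so folds are relative to that scale, and a single intensity carries no count from which a depth follows; the number of arrays limits the precision.

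Of 31099 probe sets in the table, 57 were controls and were not used. Values were raised to a floor of 16 and transformed to log2 (the deposited values are linear; 143 cells were 0). Probe sets with a mean log2 intensity above the 40th percentile (7.388, an intensity of 167.6) were tested, 18625 in all. Gene names came from the platform annotation: 20832 probe sets had 1 symbol, of which 20764 matched a RefSeq gene, and 436 had several and were given no name. Where a gene had several tested probe sets, the one of highest mean level stood for it. A limma model (limma 3.58.1, R 4.3.3) estimated the group means (24 residual degrees of freedom, variance trend), a script tested on simulated data. Two-sided p-values were adjusted by Benjamini-Hochberg over all tested probe sets within each comparison, threshold 0.05. Correlations between genes used 1e+05 permutations (scipy 1.17.1). Promoter sequences are from RefSeq, build GRCr8; the members *Ccnd1* and *Bax* are named only.

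The members, the gene lists and the tests were chosen with earlier results of these data known. The text names all members and the 5 highest and 3 lowest correlations of *Cdkn1a* and *Ccnd1*. Of each list and comparison it names at most the 4 called genes of smallest p, and *Ephx1*. Not every such call is described. In T20 against SI, *Bnip3*, *Rpa3*, *Rbl2* and *Ier3* also rose, by 0.61, 0.51, 0.38 and 0.87 (adjusted p = 0.007, 0.035, 0.0325 and 0.0283, limma). *Psat1* and *Sesn3* also fell there, by 0.81 and 0.52 (0.0431 and 0.029). Among these, only the *Bnip3* call held without any 1 array. The labels do not say that replicate numbers mark a shared batch, so the main fit did not pair the samples by number. Of 75 same-number pairs of arrays, 22 correlated over 0.1 in their deviations (range -0.28 to 0.35). The median r was 0.05 for these pairs and -0.01 for pairs of different number. Whether replicate numbers mark a shared condition was not tested. Alternatives were 3 other normalizations, floors of 1 and 64, no filter or the 60th percentile, no variance trend, only the groups compared, the mean of a gene's probe sets, a replicate block, each array left out, and the arrays that stood apart left out; leaving out replicates 4 and 5 of T20 and T10 was chosen after seeing the data.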

Additional observations from a re-analysis of the deposited data

Results flagged for a closer look

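Of 66 sets of 5 values (11 probe sets by 6 diets), 5 held a rat whose level lay far from the others of its diet, with a gap over 0.71 of the range; chance alone marks about 1 in 20 such sets. For *Cdkn1a*, T10 replicate 2 had a log2 intensity of 11.31, against 10.08 to 10.35 in the other T10 livers, and CI replicate 3 had 12.46, against 10.46 to 10.73 in the other CI livers. For the second probe set of *Ccnd1*, T10 replicate 1 had 9.70, against 9.21 to 9.29 in the other T10 livers, and CI replicate 5 had 9.58, against 10.11 to 10.29 in the other CI livers. For *Xpc*, S replicate 4 had 10.5, against 10.29 to 10.35 in the other S livers, and it still lay below every C liver.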

How the results depend on the processing

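The *Xpc* calls in T20 and S against C held under every alternative run. The *Xpc* call in T10 against C, both *Ccng1* calls and the *Cdkn1a* and *Ccnd1* calls in T20 against SI did not. The *Ccnd1* call was lost only when the 2 groups were fitted alone (adjusted p = 0.0621). That of *Cdkn1a* was lost also with the mean of its probe sets (0.0519), among others. *Xpc* and *Ccng1* had 1 probe set each, so the mean of a gene's probe sets gave no check on their calls. With 1 array left out, the probe sets called numbered 389 to 1029 for T20 against C (839 with all arrays), 27 to 69 for T10 against C (60), 898 to 1302 for S against C (1351), 1353 to 2217 for SI against CI (2168), 0 to 3 for CI against C (0), 228 to 1026 for T20 against SI (653), 0 to 1 for T20 against T10 (0) and 0 to 5 for the interaction (3). The members called were then 1 in T20 against C, 0 to 1 in T10 against C, 1 to 3 in S against C, 0 to 2 in SI against CI and 1 to 2 in T20 against SI. Fitting only the groups compared gave 213 calls for T20 against C, 34 for T10 against C, 39 for T20 against SI, 1 for T20 against T10 and 1 for the interaction, with 0 members in T10 against C and in T20 against SI. Without C replicate 3 and CI replicate 3 there were 383, 27 and 0 calls for T20 against C, T10 against C and the interaction, and 0 members in T10 against C and SI against CI. Without replicates 4 and 5 of T20 and T10 there were 1443, 25 and 1249 calls for T20 against C, T10 against C and T20 against SI, with 0 members in T10 against C and 1 in T20 against SI. Without T10 replicates 3, 4 and 5, T10 against C had 11 calls and 0 members. Equal median and spread gave 39 calls and 0 members in T10 against C. Median centring left 0 members in T10 against C and SI against CI and 1 in S against C; without the filter, T20 against SI had 1 member and CI against C 1 call, and at the 60th percentile the interaction had 0.

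The replicate block gave 1120 calls for T20 against C, 1693 for S against C and 970 for T20 against SI, and 1 for the interaction; 9 of 30 arrays correlated best with their own number. It changed 1 member's call, *Ccnd1* in S against C (adjusted p = 0.0385). The split of higher and lower calls moved with the scaling: 328 and 511 in T20 against C became 183 and 523 after median centring and 830 and 398 with equal spread. In S against C 556 and 795 became 761 and 603 after quantile normalization and 552 and 454 with equal spread. In SI against CI 1025 and 1143 became 1483 and 946, 2234 and 537, and 1339 and 773 under quantile, centring and equal spread. In T20 against SI 304 and 349 became 144 and 649 after centring. For the interaction 0 and 3 became 1 and 3, 1 and 2, and 1 and 3 under the same settings. Centring moved the median of all probe sets in the interaction to 0.108; other shifts were under 0.1.

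Signs turned in 45 settings of 16 member differences, none of them past the threshold either way; the cause was not tested. With 1 array left out, the T10 against C difference ran from -0.32 to 0.29 for *Cdkn1a*, -0.17 to 0.01 for *Mdm2* and -0.19 to 0.09 for *Gadd45a*. In S against C it ran from -0.15 to 0.03 for *Mdm2* and -0.18 to 0.03 for *Gadd45a*, and in CI against C from -0.06 to 0.05 for *Ccng1* and -0.15 to 0.02 for *Mdm2*. In SI against S it ran from -0.06 to 0.16 for *Ccnd1* and -0.07 to 0.11 for *Ccng1*, and in T20 against SI from -0.02 to 0.18 for *Ccng1* and -0.15 to 0.15 for *Gadd45a*. In T20 against T10 it ran from -0.08 to 0.02 for *Mdm2* and -0.14 to 0.01 for *Xpc*. Without T10 replicates 3, 4 and 5, *Cdkn1a* and *Gadd45a* were 0.24 and 0.14 in T10 against C and *Mdm2* 0.13 in T20 against T10. Without replicates 4 and 5 of T20 and T10, *Gadd45a* was 0.28 in T10 against C and 0.08 in T20 against SI, and *Ccng1* 0.12 in T20 against T10; without C and CI replicate 3, *Cdkn1a* was 0.29 in T10 against C. Quantile normalization gave 0.02 for *Gadd45a* in T10 against C and for *Ccng1* in CI against C, and 0.00 for *Ccng1* in SI against S. Equal spread gave 0.01, 0.02 and 0.03 for the same 3. Median centring gave 0.02 for *Ccng1* in SI against S, and 0.00 and -0.00 for *Mdm2* in SI against CI and T20 against SI.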

Other observations

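Genes of the ATF4 response, which is switched on when amino acids are short, included 1 gene that rose on both soy protein diets. *Asns*, asparagine synthetase, rose by 1.70 ± 0.24 in SI against CI (adjusted p = 3.99e-05, limma) and by 1.67 ± 0.24 in S against C (5.29e-05), and fell by 1.14 ± 0.24 in T20 against SI (0.00832). In SI against CI, 4 of 14 of these genes rose and 1, *Vldlr*, fell, with a list median of 0.37 against 0.003 for all genes, of which 12.5% were called. *Slc3a2* and *Psat1* were among the 4 (0.55 ± 0.15 and 0.77 ± 0.22, adjusted p = 0.0174 and 0.0264), and both lost their calls without CI replicate 5, among others (up to 0.0642 and 0.0993). In T20 and T10 against C, 0 of the 14 passed, against 4.86% and 0.402% of all genes called.

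Of 10 genes of the FOXO and fasting response, *Pdk4*, a kinase that restrains glucose oxidation, was the 1 that passed in T20 against C and fell by 1.48 ± 0.30 (adjusted p = 0.00448, limma), against 4.86% of all genes called. In S against C, where 7.99% of all genes were called, *Pdk4* fell by 1.07 ± 0.30 (0.024; up to 0.0867 without C replicate 5, S replicate 1 or S replicate 4) and *Sesn3* rose by 0.72 ± 0.14 (0.00107), a call that held without any 1 array. In SI against CI, where 12.5% of all genes were called, *Pdk4* fell by 1.62 ± 0.30 (0.000736) and *Sesn3* rose by 0.44 ± 0.14 (0.0347; up to 0.111 without 1 array, such as SI replicate 5). In T20 against C, 2 of 15 clock genes, *Clock* and *Npas2*, fell (-0.59 ± 0.16 and -0.50 ± 0.14, adjusted p = 0.0266 and 0.0369), and both lost their calls without T20 replicate 1 or 5, among others (up to 0.0871 and 0.0984). Of 16 immediate early genes, *Ier3* was the 1 that passed there and rose (0.77 ± 0.23, adjusted p = 0.0470), a call lost without T20 replicate 1, among others (up to 0.141).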
